A study of Mus musculus with 12 samples.

Results

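The Mir183 cluster is a group of 3 microRNA (miRNA) genes, Mir183, Mir96 and Mir182, that lie side by side on mouse chromosome 6. They were found by symbol among the 32101 annotated features of the small RNA table, 1577 of which are annotated miRNAs, and all 3 passed the filter on low values. The cluster was selected on measured values, because the level of Mir182 differed between wild-type cultures. For this reason Mir182, and the cluster total and make-up that it dominates, are compared with wild type by description alone, with no test. Tests were kept for Mir183 and Mir96 in every comparison, and for all members and for the make-up of the cluster between both knockout genotypes. Since the Mir183 level ran with that of Mir182 across the wild-type libraries (Pearson's r = 0.986), its comparisons with wild type are not independent of the selection. Fits of Mir183 against wild type that leave out the wild-type libraries highest in Mir182 are given with no test.

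Small RNA-seq of 20 to 24 nt RNAs was carried out on mouse embryonic stem cells (ESCs), cultured pluripotent cells that carry the label E14 in all libraries. There were 6 wild-type (WT) libraries in pairs 1, 2 and 3, 2 Dnmt1 KO libraries from 1 pair, and 4 Dicer/Dnmt1 KO libraries in pairs 1 and 2, each pair made of a library A and a library B. Dnmt1 copies DNA methylation at replication, and Dicer is the ribonuclease that cuts miRNA hairpins. The study's methods describe floxed ESCs of strain C57BL/6 in which 4OHT-induced Cre removes Dnmt1, and a line derived from it by CRISPR in which Dicer can be removed as well. They also describe a derived line in which Dicer is deleted constitutively and Dnmt1 is still floxed. Small RNA-seq is reported for the line with both genes conditional, but the labels do not name the line behind the Dicer/Dnmt1 KO libraries. Uninduced cells with both floxed genes are named as WT, whereas from the labels it is not known if the WT libraries were made from those cells. How long after induction the knockouts were collected is not known either. Line, time after induction and genotype therefore cannot be told apart in any of the comparisons, that between both knockouts included. The WT pair 2 is titled E14 2 with no genotype in the title, and its values are given with and without it below. The labels do not tell if A and B came from separate cultures, so that p-values measure the spread between these libraries, which may be technical.

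In canonical miRNA production a long primary transcript is cut in the nucleus by Drosha with its partner Dgcr8 into hairpins, and Dicer then cuts each hairpin to a duplex of which 1 strand is loaded into an Argonaute protein. The loaded strand pairs with mRNAs mainly through its seed, the bases near the 5′ end, and lowers the output of those mRNAs. The members of this cluster are transcribed together, have closely related seeds, and are best known from sensory organs such as the retina and the inner ear, and from epithelia and tumors.

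The mature 5p strands show how close the members are, and each is printed 5′ to 3′ with its seed (bases 2 to 8) in capitals.
mmu-miR-182-5p: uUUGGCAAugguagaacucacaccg
mmu-miR-96-5p: uUUGGCACuagcacauuuuugcu
mmu-miR-183-5p: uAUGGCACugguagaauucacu
The sequences come from RefSeq (build GRCm38.p6), where all 3 members were matched by symbol. Counted from 1 at the 5′ end, the seeds of miR-182-5p and miR-96-5p were identical at 6 of 7 positions and differed by A8C, with the base of miR-182-5p first. The seeds of miR-183-5p and miR-96-5p were also identical at 6 of 7 positions and differed by A2U, with the base of miR-183-5p first. The seeds of miR-182-5p and miR-183-5p shared 5 of 7 positions. Over the strand from base 1, seed included, the likeness was ordered differently, with 18 of the first 22 positions identical between miR-182-5p and miR-183-5p, 13 of 22 between miR-183-5p and miR-96-5p and 12 of 23 between miR-182-5p and miR-96-5p. Among 1679 mature mouse miRNAs in the RefSeq table, the seeds of miR-182-5p and miR-183-5p occurred in no other entry, and that of miR-96-5p also in miR-1271-5p. The first 20 bases of each mature strand matched the NCBIM37 genome at 1 place only, and other stretches of the hairpins were not searched. The listed miR-182-5p is 25 nt long, 1 base over the longest reads that were kept, so that copies of that full length would not have been counted.

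The whole hairpins are shown because the deposited values count every read that overlaps them, so the arms, printed in capitals, cannot be told apart in the levels below.
Mir183: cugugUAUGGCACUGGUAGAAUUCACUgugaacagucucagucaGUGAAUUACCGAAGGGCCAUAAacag
Mir96: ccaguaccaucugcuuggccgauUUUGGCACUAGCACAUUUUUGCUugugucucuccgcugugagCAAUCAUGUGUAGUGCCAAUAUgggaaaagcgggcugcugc
Mir182: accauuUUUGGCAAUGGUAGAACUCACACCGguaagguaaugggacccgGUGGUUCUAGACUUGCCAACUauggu
In build NCBIM37, which the files use, Mir183 (ENSMUSG00000065619) lies at chr6:30119668-30119737, Mir96 (ENSMUSG00000065586) at chr6:30119446-30119551 and Mir182 (ENSMUSG00000076361) at chr6:30115918-30115992. All 3 are on the minus strand, and the printed hairpins were identical to the NCBIM37 genome at these places. The hairpins span 3820 bases, with 116 bases between Mir183 and Mir96 and 3453 bases between Mir96 and Mir182. No other annotated feature overlaps them. The nearest genes are Nrf1, 12459 bases beyond Mir182 on the plus strand, and Ube2h, 41551 bases upstream of Mir183 on the minus strand.

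**Figure D1:**
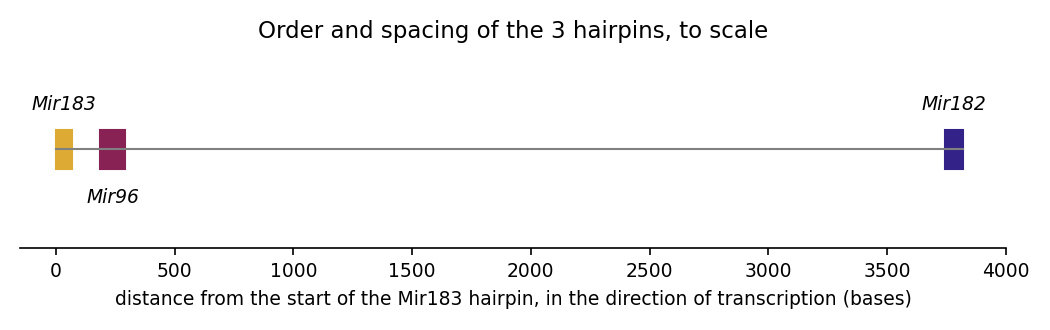
The x axis is the distance in bases from the start of the Mir183 hairpin in the direction of transcription, and each box is a hairpin drawn to scale. Mir183 and Mir96 are 116 bases apart, and Mir182 follows 3453 bases after Mir96.

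Depth was low and uneven, from 8710 reads in Dicer/Dnmt1 KO 1B to 245184 in WT 1A, and was also low in WT 2A (16142 reads). Levels are given in RPM, the unit to which the authors scaled each library, and 1 read was worth from 4.08 RPM in WT 1A to 114.81 RPM in Dicer/Dnmt1 KO 1B. The deleted genes could not be checked from fragments of their transcripts, since Dicer1 had 0 to 3 reads per library. Fragments of Dnmt1 were also few, with 8 and 9 reads where it was deleted alone against 0 to 18 in WT, and did not show its loss (log2 change 1.12, SE 0.87, limma adjusted p = 0.558). The ESC label was examined with the miRNAs of the Mir290 and Mir302 clusters, which mark these cells. Since Dicer cuts miRNA hairpins, neither they nor the other miRNA markers below can check the label in Dicer/Dnmt1 KO. All 12 miRNAs of the Mir290 and Mir302 clusters were detected in WT. Their sum ran from 28680 to 93270 RPM in WT and from 1221 to 3797 RPM in Dicer/Dnmt1 KO. It was 55930 and 99650 RPM in the Dnmt1 KO libraries, of which the Mir290 cluster held 55620 and 99190 RPM. The Mir302 cluster was low there, with Mir302c and Mir367 at 0 reads. Over 762641 WT and 175285 Dnmt1 KO reads, Mir302d had 973 and 47, Mir302a 353 and 13, and Mir302b 178 and 4. Against WT, the log2 changes of Mir302a, Mir302b and Mir302d were -2.18 (SE 0.77), -1.78 (SE 1.12) and -1.56 (SE 0.755). None of these was called by limma. Muscle markers were at 0 reads in all libraries. Of the 3 nervous system features 2 were at 0 everywhere, while Mir128-1 held 61.95 to 125.1 RPM in WT, 46.47 and 73.88 RPM in Dnmt1 KO and 0 reads in the double knockout, and of the 3 blood features Mir223 had a single read in all, while Mir142 and Mir150 carried the sum of 713.7 to 806.8 RPM in WT, 547 and 743 RPM in Dnmt1 KO and 0 to 122.5 RPM in the double knockout. Fibroblast or feeder miRNAs (7 features, led by Mir21, Mir22 and Mir143, with Mir199a-1 at 0) summed to 6876 to 13870 RPM in WT and 9953 to 32980 RPM in Dicer/Dnmt1 KO, against 37250 and 46020 RPM in the Dnmt1 KO libraries. The rest of the list was near 0. In WT, Dnmt1 KO and Dicer/Dnmt1 KO, Mir214 had 1, 6 and 9 reads, Mir145 4, 7 and 7, and Mir199a-2 0, 0 and 1. The sums, carried by Mir21, Mir22 and Mir143, were therefore higher in both Dnmt1 KO libraries than in any WT library. The part of these miRNAs in the results below was not tested.

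Mir182, the most abundant member, had 37570 and 65800 RPM in WT 1A and 1B, 412800 and 181500 RPM in WT 2A and 2B, and 35320 and 57320 RPM in WT 3A and 3B. It had 210700 and 213900 RPM in Dnmt1 KO A and B. The double knockout had 43160 and 10450 RPM in 1A and 1B, and 4462 and 2449 RPM in 2A and 2B. The E14 2 pair lay far above the other WT libraries and, like Dnmt1 KO, held Mir182 as its most abundant miRNA. The Dicer/Dnmt1 KO libraries were the lowest, apart from 1A, which exceeded WT 1A and WT 3A.

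The group means of Mir182 were 131700 ± 148000 RPM in WT (SD, n = 6), 15130 ± 19000 RPM in the double knockout (SD, n = 4) and 212300 ± 2240 RPM in Dnmt1 KO (SD, n = 2). Without E14 2 the WT mean was 49000 ± 14900 RPM (SD, n = 4), so that this pair alone set most of the WT mean and of its spread. In the order Dnmt1 KO, WT, Dicer/Dnmt1 KO, the ranges of neighbouring groups overlapped, except that Dnmt1 KO lay above the 4 other WT libraries once E14 2 was left out. In bulk RNA, fewer cells that hold a miRNA and less of it per cell cannot be told apart.

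Mir183, the most upstream member, followed Mir182 across WT at a much lower level. It had 673 and 1296 RPM in WT 1A and 1B, 32590 and 8081 RPM in WT 2A and 2B, and 1275 and 1376 RPM in WT 3A and 3B. Dnmt1 KO A and B held 18010 and 11710 RPM. The double knockout had 5921 and 689 RPM in 1A and 1B and 1372 and 491 RPM in 2A and 2B, and the value of 1B rested on 6 reads. Here the 4 Dicer/Dnmt1 KO libraries spanned the range of WT 1 and WT 3, and only the E14 2 pair and Dnmt1 KO stood above them. The means were 7548 ± 12600 RPM in WT (SD, n = 6), 1155 ± 324 RPM in WT without E14 2 (SD, n = 4), 2118 ± 2560 RPM in the double knockout (SD, n = 4) and 14860 ± 4460 RPM in Dnmt1 KO (SD, n = 2).

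Mir96, between the other members, was close to the limit of detection. It had 44 and 31 reads in WT 1A and 1B, 2 and 38 reads in WT 2A and 2B, and 34 and 29 reads in WT 3A and 3B. Dnmt1 KO A and B had 25 and 23 reads. Of the Dicer/Dnmt1 KO libraries only 2A had a read, a single one, and 1A, 1B and 2B had 0. In RPM the WT libraries ran from 124 to 471, with a mean of 243 ± 121 (SD, n = 6), and the Dnmt1 KO mean was 292 ± 110 (SD, n = 2). A count of 0 allows up to 3 reads, which is 122.5 RPM in Dicer/Dnmt1 KO 1A, 344.4 RPM in 1B and 19.91 RPM in 2B. The limit in 2B is under every WT value. That in 1A is close to the lowest WT value, 123.9 RPM in WT 2A, which itself rests on 2 reads (95% Wilson interval 33.98 to 451.7 RPM), and that in 1B, the shallowest library, is within the WT range, so that a lower level in 1A or 1B was not detectable from these libraries alone. Mir96 was not higher in the E14 2 pair, with 124 and 271 RPM there against 180 to 471 RPM in the other WT libraries.

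Divided by the hairpin length, the WT mean level was 1760 ± 1970 RPM per base for Mir182, 108 ± 180 for Mir183 and 2.3 ± 1.14 for Mir96 (SD, n = 6). This order of the 3 members was the same in Dnmt1 KO (2830, 212 and 2.75 RPM per base) and in the double knockout (202, 30.3 and 0.0372 RPM per base).

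**Figure D2:**
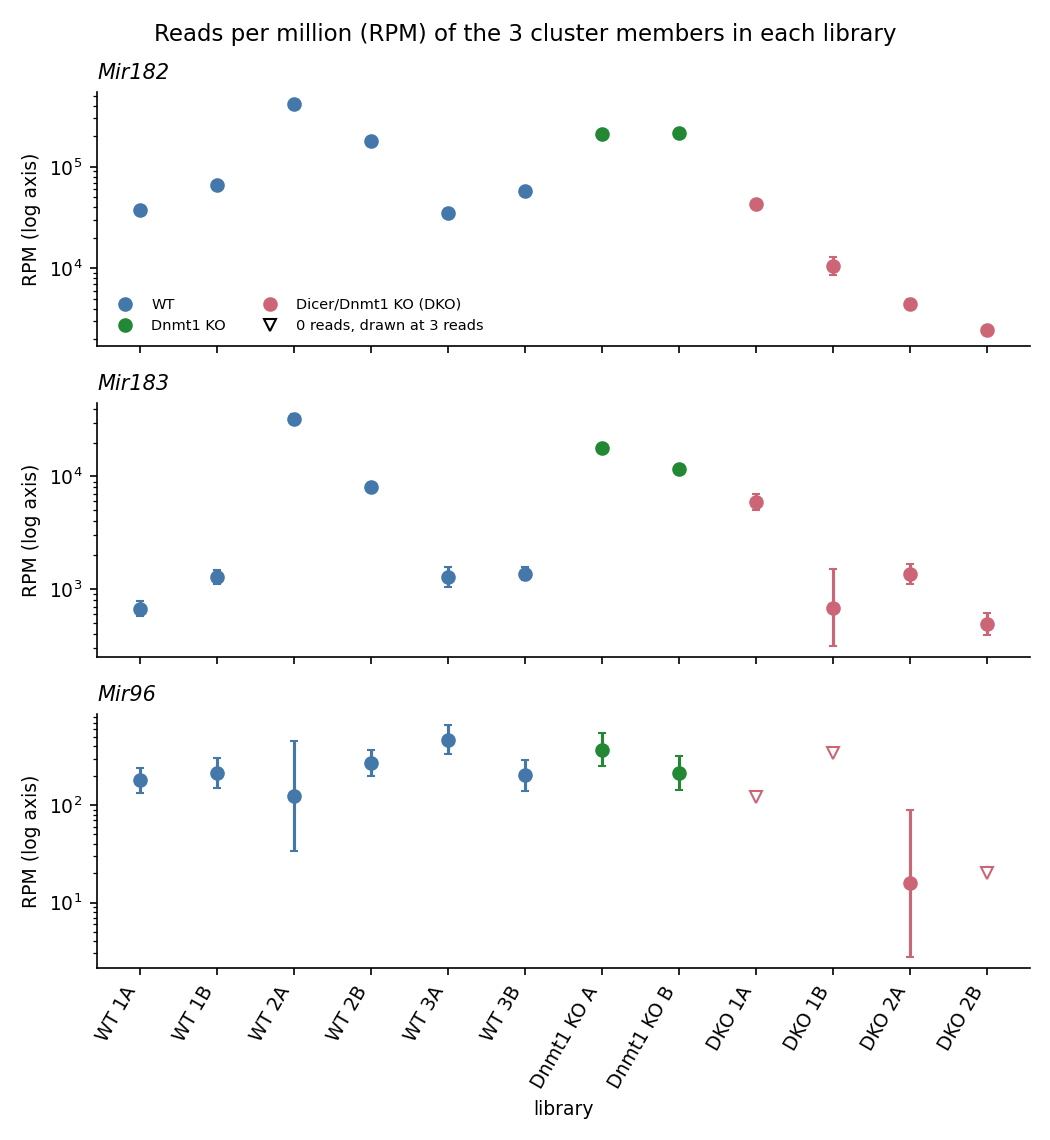
Each point is the level of a member in 1 library in RPM on a log axis, with its 95% Wilson interval for counting error, and open triangles mark libraries with 0 reads, drawn at the level of 3 reads. Mir182 and Mir183 peak in WT 2A at 412800 and 32590 RPM, whereas Mir96 stays between 124 and 471 RPM in WT and has a single read in all Dicer/Dnmt1 KO (DKO) libraries.

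The double knockout libraries were first set against those of Dnmt1 KO. This comparison does not isolate the loss of Dicer, since line and time after induction cannot be told apart from genotype. It comes first because all 3 members could be tested in it. All 3 were lower in Dicer/Dnmt1 KO, and Mir182 and Mir96 passed the test. On the scale of log2(RPM + 10) after TMM scaling, Mir182 fell by 5.68 (SE 1.27, limma adjusted p = 0.00355). Mir96 fell by 5.02 (SE 0.59, limma adjusted p = 2.37e-05), but its values in Dicer/Dnmt1 KO lay at or near the floor set by the added 10 RPM. The spread of Mir96 between those libraries rests on that floor and a single read, so the p-value does not measure it. With 1 or 50 RPM added instead, the Mir96 change was -7.69 or -3.03. Mir183 missed the threshold at -4.49 (SE 1.57, limma adjusted p = 0.0571). The fit shares its estimate of spread over all groups, so the wide WT spread enters these SEs although WT is not compared here. All 4 Dicer/Dnmt1 KO libraries lay under both Dnmt1 KO libraries for each member, except that the upper limit of Mir96 in 1B reached into them.

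The 2 of 3 members called lower stood against 21.7% of all 683 tested features called lower in this comparison, and against 74.4% of the 133 tested miRNAs. The median log2 fold change was -4.17 for these miRNAs and -0.16 for all tested features. Counted from the largest fall, Mir182 was 27th, Mir96 43rd and Mir183 58th of the 133 miRNAs, so the members lay in the body of the miRNAs rather than apart from them. The call of Mir182 was lost without pair 2 of Dicer/Dnmt1 KO (log2 fold change -4.36, limma adjusted p = 0.0571). It was also lost with A and B of each pair summed (-5.46, limma adjusted p = 0.0849). Over 29 alternatives the limma adjusted p of Mir182 ran from 2.86e-35 to 0.0849. The lower end came from the fit with no filter, over 14232 features, where the SE was 0.43 against 1.27 in the main fit at a like fold change (-5.67). The call of Mir183 was gained without WT 3A (-4.43, limma adjusted p = 0.0316) or without Dicer/Dnmt1 KO 1A (-5.17, limma adjusted p = 0.0359). It was also gained without WT 2A (-4.18, limma adjusted p = 0.00599), the library highest in the Mir182 readout that selected the cluster. There the SE went from 1.57 to 1.00, and this gain is not support for a change. Over 29 alternatives the limma adjusted p of Mir183 ran from 0.000647, with no filter, to 0.29.

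The combined loss of Dicer and Dnmt1 was examined against WT. Mir96 fell by 4.54 (SE 0.44, limma adjusted p = 3.06e-06) and was called in 30 of 30 alternatives. It passed the filter through WT and Dnmt1 KO alone, and its Dicer/Dnmt1 KO values lay at or near the floor. The alternatives share these near-empty libraries, so they are not independent support, and the p-value does not measure a spread between those libraries. Over summed reads Mir96 had 178 reads of 762641 in WT and 1 of 247330 in Dicer/Dnmt1 KO, a ratio of 57.7 (95% interval 10.2 to 2290, for counting error only). The log2 change of Mir183 was -1.92 (SE 1.17, limma adjusted p = 0.295), which E14 2 set almost alone, since without that pair it was -0.14 (SE 0.60, given with no test). Mir182 had a log2 fold change of -4.19 (SE 0.94), or -2.85 without E14 2, both given with no test.

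Of the members tested against WT, Mir96 and not Mir183 was called lower, beside 19% of all 683 tested features and 60.9% of the 133 tested miRNAs. The miRNA median was -2.75 and that of all tested features -0.09. Counted from the largest fall, Mir96 was 32nd, Mir182 37th and Mir183 80th of 133. Whether the changes of Mir96 and Mir183 differ from each other was not tested.

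The loss of Dnmt1 alone was examined in the same way. The log2 change of Mir183 was 2.57 (SE 1.48, limma adjusted p = 0.388) and that of Mir96 0.48 (SE 0.55, limma adjusted p = 0.707), so that 0 of the tested members were called by limma, at an unadjusted p under 0.05 as well, and 0 by voom. The background is 6.59% of all 683 tested features called higher. Mir182 had a log2 fold change of 1.48 (SE 1.19), given with no test, against a miRNA median of 1.40. The Mir183 result depended on E14 2, being higher by 4.0 (SE 0.73) without the pair and by 3.41 without WT 2A alone. Mir183 ran with Mir182 in WT, and E14 2 stood out in the Mir182 values that selected the cluster. Both fits are therefore given with no test, and Mir183 was called in no other of the 27 alternatives. Mir96 was not called in any of 26 alternatives (0.31 to 0.98). Of the fibroblast or feeder miRNAs given above, Mir21, Mir22 and Mir143 moved in the same direction in this comparison. With these, 3 of 3 tested features were called higher (median 2.62), beside 21.1% of all tested miRNAs. The other features of that list were too low to be tested.

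**Figure D3:**
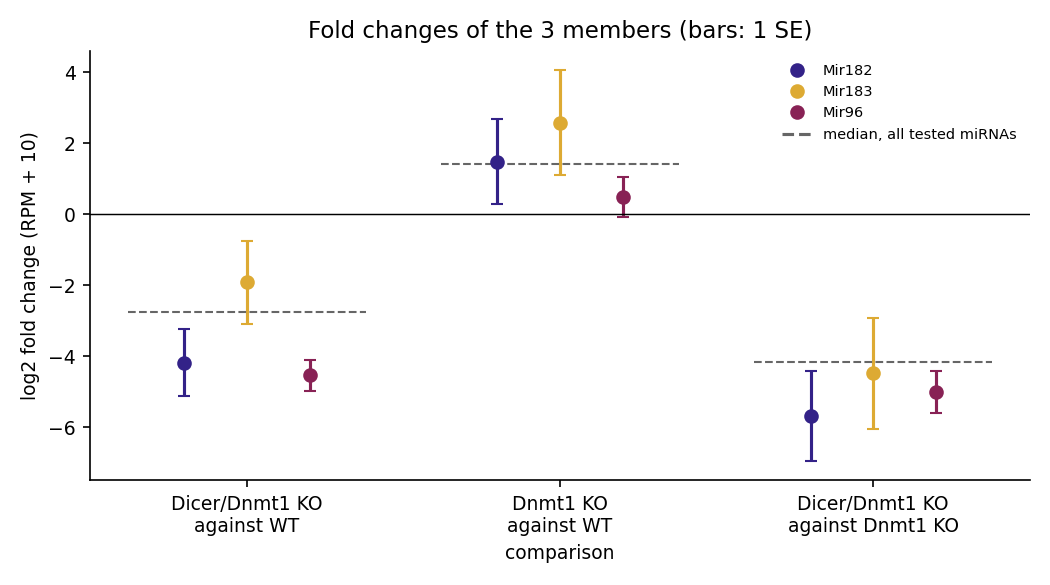
Points are log2 fold changes of the 3 members on the log2(RPM + 10) scale from a single limma fit, bars are 1 SE, and dashed lines are the medians of the 133 tested miRNAs. All 3 members lie under 0 in both comparisons of Dicer/Dnmt1 KO, from -5.68 to -1.92, with Mir183 nearest to 0 in each. The place of Mir96 depends on the 10 RPM added, because it is near the floor in Dicer/Dnmt1 KO.

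The make-up of the cluster needs no scaling, since it is taken within each library. Mir182 made up 97.8%, 97.8%, 92.7%, 95.6%, 95.3% and 97.3% of cluster reads in WT 1A, 1B, 2A, 2B, 3A and 3B, and 92.0% and 94.7% in Dnmt1 KO A and B. It made up 87.9%, 93.8%, 76.3% and 83.3% in the double knockout libraries 1A, 1B, 2A and 2B. Mir183 filled almost all of the rest. Per 100 Mir182 reads there were 1.79 to 7.89 Mir183 reads in WT, against 5.47 and 8.55 where Dnmt1 was lost, and 6.59 to 30.7 in the double knockout. On average Mir183 was a larger part of the cluster in the double knockout, most of all in pair 2, where Mir183 took 23.5% (95% Wilson interval 19.4% to 28.0%) and 16.7% (13.5% to 20.5%) of cluster reads. In 1B the share of 6.19% rested on 6 reads (2.87% to 12.8%) and lay within the WT range.

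The mean Mir182 share was 85.3% ± 7.41 in Dicer/Dnmt1 KO (SD, n = 4) against 96.1% ± 1.99 in WT (SD, n = 6), a difference of -10.7 percentage points. This difference is given with no test, and it was -11.7 percentage points without E14 2 and -11.1 with Mir96 left out. The share in Dnmt1 KO was 93.3% ± 1.94 (SD, n = 2), or -2.72 percentage points against WT, also with no test. The double knockout differed from Dnmt1 KO by -8.02 percentage points (exact permutation p = 0.267, two-sided, 0.4 after Benjamini-Hochberg adjustment over 2 tests of shares), a comparison in which 2 libraries against 4 allow no p under 0.133.

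The Mir96 share was lower in the E14 2 pair and in Dnmt1 KO than in the other WT libraries. The share was 0.467%, 0.318%, 1.27% and 0.342% of cluster reads in WT 1A, 1B, 3A and 3B. It was 0.0278% (2 reads) and 0.143% in the E14 2 pair, and 0.161% and 0.0947% in Dnmt1 KO. Most of the cluster reads are Mir182, the readout that selected the cluster, so this is not independent of the selection. The Mir96 level itself was 271 RPM in WT 2B and 369.4 and 213.7 RPM in Dnmt1 KO, against 179.5 to 471.2 RPM in WT 1 and WT 3. The only double knockout library with a Mir96 read, 2A, had 0.27% (95% Wilson interval 0.0476% to 1.51%), and the upper Wilson limits of 1A, 1B and 2B, with 0 reads, were 0.319%, 3.81% and 0.86%, so that a share under that of WT was not detectable there. As a description over the 6 WT libraries, log2 levels of Mir182 and Mir183 had Pearson's r = 0.986, Mir182 and Mir96 r = 0.265, and Mir183 and Mir96 r = 0.394, values that share library depth and scaling.

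**Figure D4:**
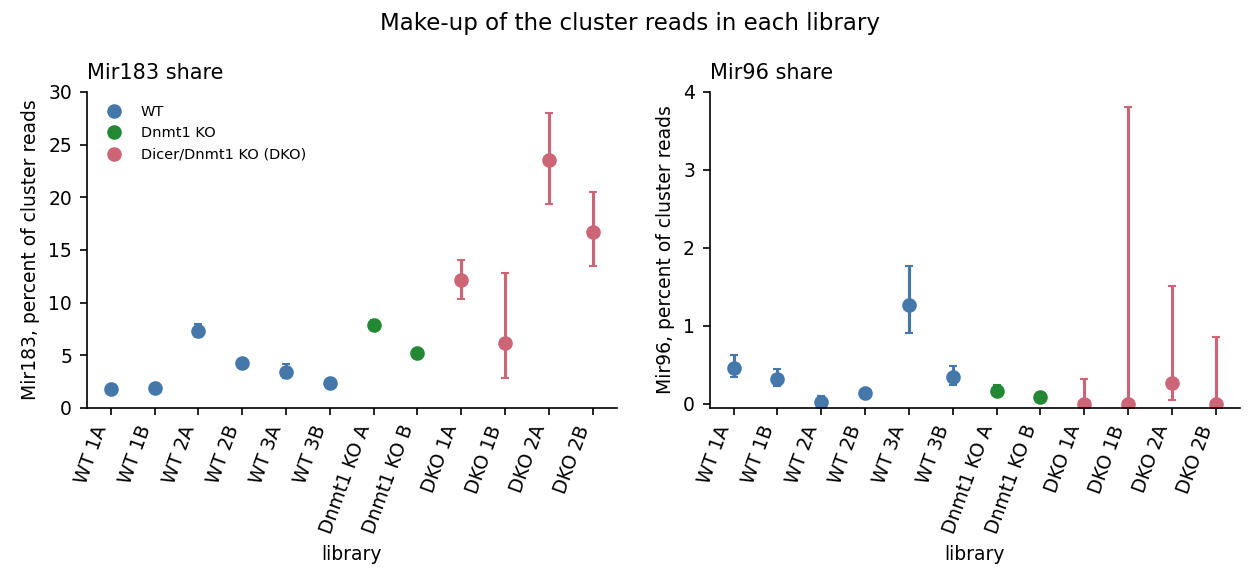
Points are the percent of cluster reads from Mir183 (left) and Mir96 (right) in each library, with 95% Wilson intervals for counting error. Mir183 runs from 1.75% to 7.31% in WT and from 6.19% to 23.5% in Dicer/Dnmt1 KO (DKO), and Mir96 is highest in WT 3A at 1.27%.

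The cluster took a large and variable part of all miRNA reads. It made up 13.2%, 17.5%, 64.1%, 37.5%, 10.3% and 16.4% of them in WT 1A to 3B in the order above, 35.0% and 36.0% in Dnmt1 KO. The share was 40.9% and 16.7% in pair 1 of the double knockout and 5.71% and 4.12% in pair 2. In WT 2A Mir182 alone was 59.4% of miRNA reads and 41.3% of all library reads. Both Dnmt1 KO libraries resembled WT 2B in this share, and the pairs of the double knockout differed from each other as well.

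The mean share was 26.5% ± 20.8 in WT (SD, n = 6), 14.3% ± 3.24 in WT without E14 2 (SD, n = 4), 16.8% ± 17.0 in Dicer/Dnmt1 KO (SD, n = 4) and 35.5% ± 0.717 in Dnmt1 KO (SD, n = 2). Against WT, Dicer/Dnmt1 KO was lower by 9.67 percentage points with E14 2 and higher by 2.49 without it, given with no test. Against Dnmt1 KO the difference was -18.7 percentage points (exact permutation p = 0.4, two-sided and unchanged by adjustment over the 2 tests of shares, with 0.133 the smallest possible), because Dicer/Dnmt1 KO 1A lay above both Dnmt1 KO libraries. All miRNAs together made up 29.5% to 65.8% of counts in WT and 6.55% to 12.7% in Dicer/Dnmt1 KO. Within what was left Mir182 was the most abundant miRNA in 1A and 1B, and ranked 8th in 2A and 7th in 2B. In 1B its share of miRNA reads, 15.6%, came from 91 reads.

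**Figure D5:**
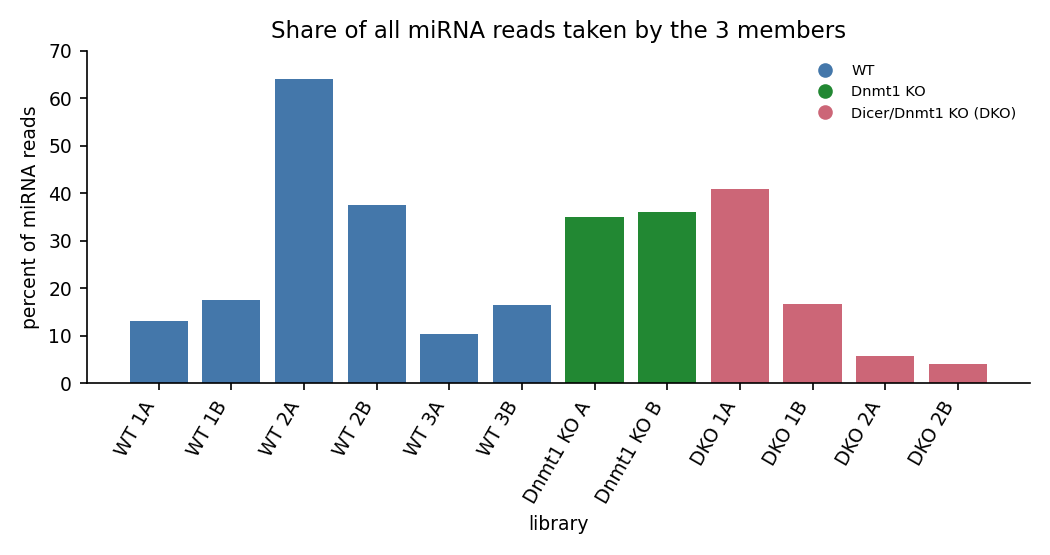
Bars give the percent of all miRNA reads in each library that came from the 3 members. The share is highest in WT 2A at 64.1% and lowest in Dicer/Dnmt1 KO (DKO) 2B at 4.12%, and the 2 Dnmt1 KO libraries stand at 35.0% and 36.0%.

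The A and B libraries of a pair show how reproducible these levels were. For Mir182 the higher library exceeded the lower by 1.75-fold, 2.27-fold and 1.62-fold in WT 1, 2 and 3, by 1.02-fold in Dnmt1 KO, and by 4.13-fold and 1.82-fold in Dicer/Dnmt1 KO 1 and 2. For Mir183 the largest such gaps were 8.59-fold in Dicer/Dnmt1 KO 1 and 4.03-fold in WT 2. The lower Mir182 value of WT 2, 181500 RPM, still exceeded the highest of the other 4 WT libraries, 65800 RPM.

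The miRNAs whose log2 levels were most like each member over the 12 libraries are given as a description, among 130 tested miRNAs outside the cluster. For Mir182 they were Mir192 on chromosome 19 (Pearson's r = 0.965), Mir425 on chromosome 9 (0.956) and Mir151 on chromosome 15 (0.955). For Mir183 they were Mir146 on chromosome 11 (0.939), Mir125a on chromosome 17 (0.916) and Mir151 (0.905). For Mir96 they were Mir200a on chromosome 4 (0.982), Mir292 on chromosome 7 (0.98) and Mir181d on chromosome 8 (0.979). None of these lies on chromosome 6, and all of these values share library depth, scaling and the low miRNA levels of Dicer/Dnmt1 KO. Across the same 12 libraries Mir182 and Mir183 had r = 0.883, Mir182 and Mir96 0.813, and Mir183 and Mir96 0.57.

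The genes around the cluster gave too few reads to be followed across libraries. Within 100 kb, Nrf1 had at most 4 reads in a library and 18 in all, Ube2h at most 3 and 6 in all, and a 7SK copy none. The miRNA pathway was read only through fragments as well. All 17 genes listed, among them Drosha, Dgcr8, Xpo5, the Argonaute genes, the Tnrc6 genes and Lin28a, were found, none passed the filter, and the highest count was 9 reads in a library. Of 10 known targets of the cluster, among them Foxo1 and Foxo3, transcription factors, Mitf, a regulator of pigment cells, and Adcy6, an adenylyl cyclase, none passed the filter and the highest count was 11 reads (Itgb1). The 20 to 24 nt fragments therefore held no usable measure of the machinery or of the targets.

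Both families of miRNAs below were used to place the cluster. Markers of epithelium as a whole (7 features) summed to 743.4 to 1441 RPM in WT, 15.77 to 344.4 RPM in Dicer/Dnmt1 KO and 2054 and 2556 RPM in the Dnmt1 KO libraries. Among them, the Mir200 family of epithelial miRNAs (5 genes, 4 tested) summed to 681.5 to 1098 RPM in WT, 0 to 33.18 RPM in Dicer/Dnmt1 KO and 1877 and 2333 RPM in the Dnmt1 KO libraries, with 4 of 4 tested members called lower against Dnmt1 KO (median -5.50), beside the 21.7% of all tested features and 74.4% of tested miRNAs given above. In the E14 2 pair it had 681.5 and 1098 RPM, the lowest and the highest of the WT values. The ESC-specific Mir290 cluster (7 genes, 7 tested) summed to 28130 to 91540 RPM in WT and 1201 to 3471 RPM in Dicer/Dnmt1 KO, with 7 of 7 called lower against Dnmt1 KO (median -6.43), beside the same shares of 21.7% and 74.4%. Set against Mir290 within each library, the log2 ratio of Mir183 cluster to Mir290 cluster reads was 2.02 ± 1.25 in Dicer/Dnmt1 KO (SD, n = 4) and 1.61 ± 0.575 in Dnmt1 KO (SD, n = 2), a difference of 0.406 that lay within the spread (exact permutation p = 1.0, two-sided, with 0.133 the smallest possible).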

How the data were processed

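As the labels and the methods of the study describe, the authors used Trim Galore (0.3.5) for trimming, kept reads of 20 to 24 nt, mapped them with Bowtie2 (2.2.6) to NCBIM37 and counted overlaps with annotated features in SeqMonk; the roles of the tools follow the methods and their versions the submitters' processing notes. The deposited values are log2 RPM with 0 written as 0.9 read, and whole reads (within 0.01) came back for 100.0% of values. The other 89 value columns match no sample here and were left out. How reads with several positions were placed is not given in the sources used here, and strands were not separated.

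Features with at least 111.3 RPM (10 reads at the median depth) in 2 libraries and 15 reads in all were tested, 683 in number. Reads were scaled by TMM (with 30% of log ratios trimmed, and 5% of abundances), and log2(RPM + 10) was fitted with limma 3.58.1 (R 4.3.3, mean-variance trend, all 12 libraries, no covariates, Benjamini-Hochberg at 0.05). Fold changes on this scale understate changes of low features. The script was tested on simulated data. Shares were tested between both knockouts by two-sided exact permutation (NumPy 2.4.6) and intervals are 95% Wilson or, for ratios of summed reads, exact binomial (SciPy 1.17.1). They cover counting error alone, as do limits for 0 reads, because reads carry no molecular identifiers. Groups follow the genotype labels. Named genes were the members, the 3 miRNAs most like each, and features within 100 kb. The members, lists and tests were chosen with earlier results of these data known. Alternatives covered scaling, filter, pseudocount, voom, pairs, blocks and left-out libraries.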

Additional observations from a re-analysis of the deposited data

Results flagged for a closer look

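In 14 groups of 4 or 6 libraries, member levels and shares were searched for a library far from the rest, as a description with no test. The cutoff has a nominal rate of about 1 in 20 groups by chance. That rate cannot be applied to the WT values of Mir182 that selected the cluster, to Mir183 that ran with them, or to counts near 0. Mir183 stood out in WT 2A (32590 RPM, with WT 2B next at 8081 RPM) and in Dicer/Dnmt1 KO 1A (5921 RPM, with 2A next at 1372 RPM). Both libraries are among the shallow ones of their groups, with 16142 and 24491 reads, and the part of depth was not tested. Mir96 stood out in Dicer/Dnmt1 KO 2A in level (15.77 RPM) and in share of cluster reads (0.2695%), in both cases because of a single read where the other libraries of the group had 0. Its share of cluster reads also stood out in WT 3A (1.271%, with WT 1A next at 0.467%), on 34 reads.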

How the results depend on the processing

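Of the recomputed values 309 kept their direction and their side of the threshold (or, where untested, moved by less than the spread between libraries), 11 gained a call and 2 lost one, and no called value changed sign. Part of this tally could not come out otherwise, since the tests of shares cannot pass 0.05. The untested cluster share of miRNA reads in Dicer/Dnmt1 KO against WT counts as kept, although it went from -9.67 to 2.49 percentage points without E14 2. Mir183 in Dicer/Dnmt1 KO against Dnmt1 KO gained a call with factors from snoRNAs and snRNAs (-4.97, limma adjusted p 0.0462), with TMM without miRNAs (-4.47, 0.0415), with no filter (-4.48, 0.000647), with voom (-4.44, 0.0409), without E14 2 (-4.15, 0.000868) and with only the compared groups fitted (-4.63, 0.00887), and leaving out single libraries moved it between -5.17 and -4.07. Mir183 in Dnmt1 KO against WT was 4.0 without E14 2, and leaving out single libraries moved it between 2.12 and 3.41. Its 2 gains of a call came without E14 2 and without WT 2A, the WT libraries highest in Mir182. Since that readout selected the cluster, these gains are not support for a change. Mir182 in Dicer/Dnmt1 KO against Dnmt1 KO lost its call without pair 2 of Dicer/Dnmt1 KO (-4.36, limma adjusted p 0.0571) and with A and B summed (-5.46, limma adjusted p 0.0849), where fewer samples were fitted. For Mir183 in Dicer/Dnmt1 KO against Dnmt1 KO, the SE was 1.57 in the main fit, 0.73 without E14 2 and 1.00 without WT 2A. These are again the WT libraries highest in Mir182, so the calls gained without them are not support for a change either. WT enters this comparison through the shared spread, the filter and the scaling, and their parts were not tested. The cause of the other changes was not tested either. A pseudocount of 1 or 50 moved the fold change of Mir96 in Dicer/Dnmt1 KO against WT to -7.19 or -2.61, with the call unchanged. Against Dnmt1 KO it moved to -7.69 or -3.03, also with the call unchanged. A stricter filter (20 reads in 4 libraries) left Mir96 untested. Shares with A and B summed were given no test, since so few values cannot pass 0.05.

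Replicates with the same title number did not deviate together (correlations -0.28 to 0.11), so they were not taken as pairs. A replicate block over the 8 libraries with shared title numbers gave log2 fold changes against WT of -4.67 for Mir182, -2.45 for Mir183 and -4.49 for Mir96, equal to those of the same 8 libraries without it, a setting added after seeing the data. Scaling by library reads without those of Mir182, also added then, changed no call. Depth limits Mir96 most, which had at most 44 reads in a library.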
